A study of Mus musculus with 3 samples.

Results

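The genes described here are 9 genes of major histocompatibility complex (MHC) class I antigen presentation and of the interferon response in mouse embryonic stem (ES) cells: B2m, H2-K1, H2-D1, Tap1, Tapbp, Nlrc5, Stat2, Irf3 and Irf9. They were chosen by name for their role in the pathway, with earlier results of these data known. All 9 were found among the 55536 genes of the tables. Total RNA was sequenced from 3 libraries, the biological replicates 1, 2 and 3 of F121-9 cells at passage 14, each made from 400 ng of RNA. F121-9 is a single hybrid ES cell line with Cast and 129 parents. The tables do not separate the alleles of these parents. The labels name no treatment, and the libraries form 1 group, so that no comparison between conditions exists. The labels do not tell whether the replicates came from separate cultures, so each p-value below reflects only how these libraries differ, possibly for technical reasons.

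MHC class I molecules carry peptides from inside the cell to its surface, where cytotoxic T cells and natural killer cells read them. A heavy chain (here H2-K1 or H2-D1) pairs with beta-2-microglobulin, the product of B2m. TAP1 is part of the transporter that brings peptides into the endoplasmic reticulum, tapasin (Tapbp) helps load them, and NLRC5 is the transactivator of the class I genes. Interferons act on these genes through JAK kinases and a complex that holds STAT2 and IRF9 and binds interferon-stimulated response elements (ISREs), while IRF3 acts upstream and switches on interferon genes once a sensor detects viral nucleic acid. Pluripotent cells are known for low class I levels and a weak interferon response.

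Stretches of the promoters of 4 of these genes are shown because they hold the type of element through which interferon acts on class I genes. Promoters were taken from RefSeq on GRCm38.p6, as 300 bases from 250 before to 50 after the start of the gene, and 8 of the 9 genes had an entry (Nlrc5 did not). The stretches are 30 bases long and read 5′ to 3′ in the direction of the gene. Capitals mark a match on either strand to the ISRE core, GAAA and GAAA with 2 free bases between them (B2m and Stat2), or to the shorter GAANNGAAA (H2-K1 and H2-D1), which was added after the sequences had been seen.
B2m, chr2:122147538-122147567, + strand: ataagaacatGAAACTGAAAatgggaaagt
Stat2, chr10:128270266-128270295, + strand: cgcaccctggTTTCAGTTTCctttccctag
H2-K1, chr17:34000418-34000447, - strand: atctccacagTTTCACTTCtgcacctaacc
H2-D1, chr17:35262934-35262963, + strand: atctcctcagTTTCACTTCtgcacctaacc
The H2-D1 stretch lies inside the gene as GENCODE M21 draws it, which begins farther upstream than in RefSeq. The stretches of H2-K1 and H2-D1 were the same at 29 of 30 bases. The ISRE core was held by 2 of the 8 member genes with a promoter entry, against 3.99% of the 27025 genes in the RefSeq table, and the shorter form by 3 of 8 (H2-K1, H2-D1 and Stat2) against 8.68%. The interferon-gamma element TTCNNNGAA was held by 0 of 8 against 9.55% of genes. In Stat2 the core and the shorter form overlap. The shorter form was added with these sequences in view, so its count cannot test for an excess over all genes. H2-K1 and H2-D1 are not separate cases either, since their promoters aligned locally with 90.7% identity.

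The longer windows upstream of B2m and H2-K1 show how the other class I promoter letters are laid out. Capitals mark the ISRE letters, then TGACG (the short form of a cyclic AMP response element, also added after the sequences had been seen), then ATTGG, which is CCAAT on the other strand.
B2m, chr2:122147537-122147656, + strand: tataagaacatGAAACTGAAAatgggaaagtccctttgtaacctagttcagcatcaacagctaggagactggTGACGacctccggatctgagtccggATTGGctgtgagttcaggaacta
H2-K1, chr17:34000348-34000467, - strand: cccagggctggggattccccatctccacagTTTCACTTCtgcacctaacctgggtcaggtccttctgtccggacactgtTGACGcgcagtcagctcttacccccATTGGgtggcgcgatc
Both windows held the 3 types of element in the same order. They lie at unlike distances, 150 to 31 bases before the start in B2m and 120 to 1 in H2-K1. Further matches lie outside them, TGACG at 44 bases after the start in B2m and CCAAT at 8 in H2-K1. The ISRE letters also differ in form and strand. The shared order therefore depends on the windows and letters chosen and is not a test. CCAAT was found in the promoters of 6 of the 8 member genes, against 41.1% of all genes, and TGACG in 4 of 8 (B2m, H2-K1, H2-D1 and Tap1), against 23.05%. These matches describe letters and not occupied sites, and the TGACG count cannot test for an excess, as it too was added later.

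The libraries held 9575747 to 10425623 estimated gene counts. The deposited tables give TPM, a level scaled to transcript length and library size, in 2 quantifications of the same reads, one with the columns that RSEM writes (RSEM-style) and one with those of kallisto (kallisto-style). Values are RSEM-style TPM on mm10 with GENCODE M21 unless stated, and means are given with the SD of n = 3 libraries. All 6 ES cell markers were expressed, with summed levels of 1844 to 2128 TPM. Fibroblast markers, 1 of 9 expressed, summed to 3.37 to 4.40 TPM, with Col3a1, Dcn, Lum and Postn at 0 counts. Blood and immune markers, 2 of 8 expressed, summed to 19.9 to 26.9 TPM, mostly from Cd68 and Csf1r, with Ptprc, Adgre1 and Lyz2 at 0 counts. Replicate 1 stood apart: 1656 of 13391 genes varied beyond counting noise among all 3 libraries, 27 without replicate 1, and 1464 and 1471 without replicates 2 and 3.

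Of the 9 genes 8 were expressed, which here means that no library fell below a TPM of 1, and 52.1% of 22028 protein-coding genes met the same rule. Nlrc5 was the exception. The median of the 9 was 10.02 TPM, against 19.7 TPM over the 11478 expressed protein-coding genes, and 7 of the 9 lay below that value. Only Tapbp and Irf3 lay above it. That median leaves out genes that were not expressed. Among all 22028 protein-coding genes, Nlrc5 lay at percentile 40.9 and Tap1 at 48.4. The other members ran from 58.2 (H2-D1) to 77.4 (Tapbp). Without replicate 1 the same number, 8, was expressed.

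B2m (ENSMUSG00000060802.8, chromosome 2, 122147686 to 122153083, + strand), the light chain shared by all class I molecules, stood at 14.2, 15.3 and 19.4 TPM in replicates 1, 2 and 3, on 71, 73 and 96 counts. Replicate 3 was the highest. The mean was 16.3 ± 2.77 TPM, at percentile 45.5 of the expressed protein-coding genes. Its 1 annotated transcript, B2m-201, lies within the span of Patl2, a gene on the opposite strand at 7.09 ± 0.289 TPM. The strand setting of the counting is not given in the sources used here, so reads of the pair could not be told apart if strand was not used.

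H2-K1 (ENSMUSG00000061232.16, chromosome 17, 33996017 to 34000347, - strand), a classical heavy chain gene, stood at 19.6, 18.2 and 16.1 TPM on 121, 102 and 93.2 counts. Replicate 1 was the highest here, while B2m was lowest in replicate 1. The mean of H2-K1 was 18.0 ± 1.77 TPM. H2-D1 (ENSMUSG00000073411.11, chromosome 17, 35262730 to 35267499, + strand), the other classical heavy chain, stood at 5.58, 4.13 and 5.66 TPM on 69.7, 57.2 and 81.2 counts. Each library gave H2-D1 less than H2-K1, with no overlap. The mean of H2-D1 was 5.12 ± 0.861 TPM, at percentile 19.8 of the expressed protein-coding genes against 47.9 for H2-K1.

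The peptide transporter gene Tap1 (ENSMUSG00000037321.17, chromosome 17, 34187553 to 34197225, + strand) was the lowest of the 8 expressed members. It stood at 1.07, 1.62 and 1.75 TPM on 22, 20 and 25 counts, 1.48 ± 0.361 TPM on average, at percentile 1.66 of the expressed protein-coding genes. The total of 67 counts has an exact 95% Poisson interval of 51.9 to 85.1, which covers counting error only. Tapbp (ENSMUSG00000024308.15, chromosome 17, 33915899 to 33929292, + strand), the tapasin gene, was the highest member. It stood at 25.8, 26.5 and 23.8 TPM on 495, 384 and 447 counts, a mean of 25.3 ± 1.41 TPM. Tapbp shares 3422 bases with Zbtb22 on the same strand (21.9 ± 4.76 TPM), and reads from that stretch are uncertain. Tap1 shares 212 bases with the oppositely transcribed Psmb9.

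Nlrc5 (ENSMUSG00000074151.13, chromosome 8, 94434356 to 94527272, + strand), the class I transactivator gene, lay close to the detection limit. Its values were 0.220, 0.510 and 0.590 TPM on 6, 10 and 8 counts. In these bulk libraries a low level in all cells and expression in a few cells cannot be told apart. All libraries exceeded the 3 counts that a count of 0 allows, and none reached a TPM of 1. The mean was 0.440 ± 0.195 TPM, and the total of 24 counts has an exact 95% Poisson interval of 15.4 to 35.7. The deposited posterior mean of Nlrc5, another estimate in the same tables, averaged 2.10 TPM, with credibility bounds of 0.522 to 3.61 TPM in replicate 1 that lie above the TPM of that library. The bounds belong to the posterior mean, and their level is not stated.

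Among the signalling members, Stat2 (ENSMUSG00000040033.16, chromosome 10, 128270559 to 128292849, + strand), which carries the interferon signal together with IRF9, stood at 11.4, 9.86 and 8.77 TPM on 310, 258 and 263 counts. Its mean was 10.02 ± 1.34 TPM. Irf9 (ENSMUSG00000002325.15, chromosome 14, 55603571 to 55610030, + strand), the DNA-binding subunit of that complex, had the smallest relative spread of the 9. It stood at 6.77, 6.36 and 6.40 TPM on 93, 100 and 91 counts, 6.51 ± 0.226 TPM on average. Irf3 (ENSMUSG00000003184.15, chromosome 7, 44997648 to 45002848, + strand), the factor downstream of the nucleic acid sensors, stood at 26.6, 19.0 and 20.8 TPM on 231, 183 and 189 counts. Replicate 1 was the highest, and the mean was 22.1 ± 3.99 TPM. Irf3 shares 1065 bases with the oppositely transcribed Bcl2l12 (18.7 ± 1.76 TPM), and Irf9 shares 123 bases with Rnf31 on its own strand (27.3 ± 1.63 TPM).

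**Figure D1:**
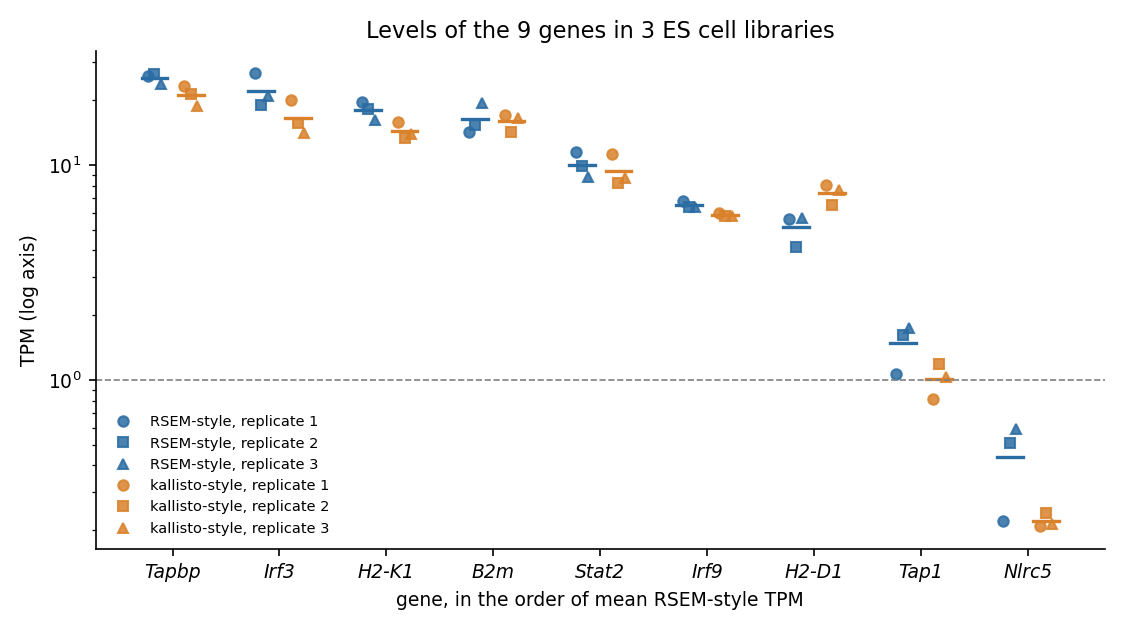
TPM of the 9 genes in each of the 3 libraries on a log axis, RSEM-style in blue and kallisto-style in orange, with a bar at each mean and a dashed line at a TPM of 1. Tapbp, Irf3, H2-K1 and B2m lie together at the top, and Tap1 and Nlrc5 lie lowest.

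In the order of mean TPM the genes were Tapbp, Irf3, H2-K1, B2m, Stat2, Irf9, H2-D1, Tap1 and Nlrc5. Of the 8 pairs of neighbours, 5 did not overlap between libraries: B2m over Stat2, Stat2 over Irf9, Irf9 over H2-D1, H2-D1 over Tap1 and Tap1 over Nlrc5. The 3 pairs among the 4 highest genes overlapped. H2-K1 exceeded B2m by 0.14 ± 0.36 in log2(TPM + 1), with the sign positive in 2 of 3 libraries, and without replicate 1 the difference was -0.0094. H2-D1 exceeded Tap1 by 1.30 ± 0.35 in 3 of 3 libraries. An exact permutation test that flips the signs of 3 differences (two-sided) cannot go below p = 0.25, so no pair could pass 0.05. The adjusted p ran from 0.333 to 0.75 over the 8 pairs (Benjamini-Hochberg).

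The protein-coding genes closest in level to B2m over the 6 values of log2(TPM + 1), 3 libraries in 2 quantifications, were Rgcc (Euclidean distance 0.121), H2-M5 (0.252) and Zfp322a (0.263). Those closest to H2-K1 were Vrk3 (0.0949), Mis12 (0.122) and Dyrk1a (0.124). H2-M5, itself an MHC class I gene of the nonclassical kind, lay at 16.2 ± 1.498 TPM. The measure compares levels in a single cell line.

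No member was called variable between the libraries. In edgeR's quasi-likelihood fit 0 of the 8 members tested were called variable, with Benjamini-Hochberg adjusted p from 0.987 to 0.996, against 0.0373% of 13391 genes. At an unadjusted p under 0.05 the number of members was also 0, and limma-voom called 0. The chi-square test against counting noise called 0 of 8 (adjusted p 0.241 to 0.903), against 12.4% of genes, again with 0 at an unadjusted p under 0.05. With 8 members, 0 called cannot be told apart from that share. The 8 rest on 67 (Tap1) to 1326 (Tapbp) RSEM-style counts in all, and low counts make a spread hard to detect. B2m had the smallest adjusted p in that test, 0.241. Nlrc5 did not pass the filter on low counts. Without replicate 1 both tests also called 0 members. The chi-square test gave B2m an unadjusted p of 0.0219 without replicate 2 (adjusted 0.131). It gave Tapbp an unadjusted p of 0.0196 without replicate 3 (adjusted 0.122).

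In the second quantification 8 of the 9 means were lower, and the highest 2 genes were again Tapbp and Irf3. B2m stood at 16.97, 14.2 and 16.6 kallisto-style TPM, a mean of 15.9 ± 1.52, so that the highest library was replicate 1 and not replicate 3. H2-K1 stood at 14.3 ± 1.33, Tapbp at 21.1 ± 2.29, Irf3 at 16.6 ± 3.02, Stat2 at 9.37 ± 1.58, Irf9 at 5.86 ± 0.104, Tap1 at 1.01 ± 0.190 and Nlrc5 at 0.221 ± 0.0162 TPM. Tap1 was below a TPM of 1 in replicate 1 of this quantification, which left 7 members expressed. H2-D1 was the only member with a higher kallisto-style mean, at 8.08, 6.48 and 7.67 TPM, or 7.41 ± 0.831. It therefore lay above Irf9 in each library of this quantification, by 0.29 ± 0.13 on the log2(TPM + 1) scale.

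The difference between the quantifications, kallisto-style minus RSEM-style log2(TPM + 1), had a median of -0.25 over the 14738 genes tested. For H2-D1 it was 0.46 ± 0.06 (SE, limma adjusted p = 0.00279), or 0.71 above that median. B2m lay 0.23 above the median, Stat2 0.16 and Irf9 0.12, while Tapbp, Tap1, H2-K1 and Irf3 lay within -0.15 of it on the lower side. A call needed an adjusted p under 0.05 and a difference of at least 1, and 0 of 8 members met both, against 13.1% of genes (10.7% higher in the kallisto-style and 2.37% in the RSEM-style tables). Without the minimum difference limma called 5 of 8 members, against 78.1% of genes: H2-D1 higher in the kallisto-style tables, and Irf3, Tapbp, Tap1 and H2-K1 higher in the RSEM-style ones. On counts, H2-D1 held 3.14 times as many kallisto-style as RSEM-style counts and B2m 2.18 times as many, against a median of 1.68 over expressed genes.

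The heavy chain genes share sequence with each other, with other class I genes and with further genes, which bears on how reads can be assigned. In GENCODE M21, 24.03% of the 31-base words of H2-K1-205 and 27.5% of those of H2-D1-202 also occur in transcripts of other genes, against 0% for B2m-201 and Stat2-201. Only words in the same direction were counted, so any shared with genes of the opposite strand, such as Patl2 for B2m, are left out. The other genes numbered 36 for H2-K1-205 and 704 for H2-D1-202. The 2 heavy chain transcripts share 268 such words with each other. Their coding sequences (1080 and 1086 bases) aligned with 92.0% identity, and the longest identical run was 91 bases. Exon 4 was the most alike of the long exons at 96.0% and exon 3, which codes for a part of the peptide groove, the least at 88.0%. The 60-base window with the most mismatches (15) lies in exon 3, and capitals mark the bases that differ.
H2-K1, chr17:33999330-33999389, - strand: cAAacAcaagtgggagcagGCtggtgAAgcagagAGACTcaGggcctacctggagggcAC
H2-D1, chr17:35263996-35264055, + strand: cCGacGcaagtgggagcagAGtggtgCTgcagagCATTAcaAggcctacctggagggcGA
A 60-base window of the same exon, a few bases upstream, has 0 mismatches and is shown once for both genes.
H2-K1, chr17:33999397-33999456, - strand, and H2-D1, chr17:35263929-35263988, + strand: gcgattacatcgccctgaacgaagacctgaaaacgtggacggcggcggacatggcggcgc
A short read from this window matches both genes equally, and the levels of H2-K1 and H2-D1 are therefore uncertain at least to the extent that reads were split between them. The cells are a hybrid line, and the alleles of its parents were not separated. Whether reads from alleles that differ from the reference were lost or assigned to other genes was not tested.

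**Figure D2:**
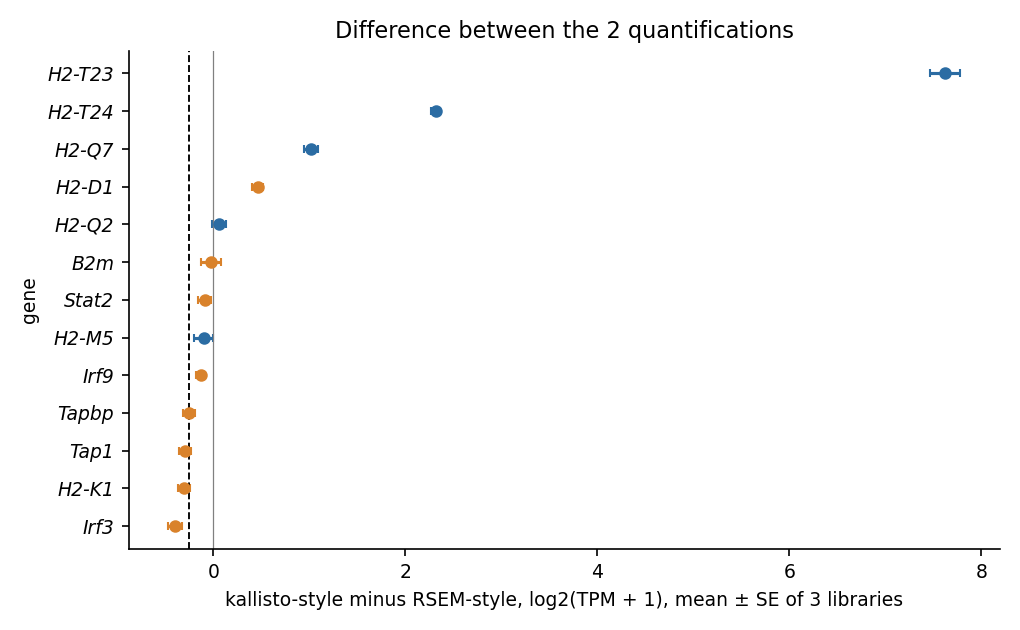
Kallisto-style minus RSEM-style log2(TPM + 1), mean and SE of 3 libraries, for the 8 members tested (orange) and 5 other class I heavy chain genes (blue). The dashed line is the median of all genes tested, -0.25. H2-D1 is the member farthest to the right, and H2-T23 lies beyond all others at 7.62.

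H2-K1 was divided between transcripts annotated as coding and as retained-intron, in proportions that depended on the unit. The classes are those of GENCODE M21. Whether reads of the retained-intron class came from mature or unspliced RNA was not tested in these total RNA libraries. Retained-intron transcripts took 54.0, 55.0 and 44.4% of the H2-K1 TPM by RSEM (mean 51.1 ± 5.87%) and 57.3 ± 6.26% by kallisto. Coding transcripts took 48.2 ± 4.62% by RSEM and 37.01 ± 1.64% by kallisto, less than the retained-intron ones in each kallisto-style library. By counts, which are not scaled to length, the balance was the opposite: 78.4 of the RSEM-style counts of H2-K1 (24.8%) were on retained-intron and 237 (74.97%) on coding transcripts. The coding H2-K1-205 held 31.6 ± 6.94% by RSEM and 24.04 ± 6.28% by kallisto, and the 457-base retained-intron transcript H2-K1-215 held 38.4 ± 3.50% and 41.1 ± 11.1% on 14.4, 11.96 and 13.1 RSEM-style counts. In H2-D1 the coding H2-D1-202 took 94.8 ± 9.00% and 97.4 ± 2.24%, and retained-intron transcripts were listed at 0. By RSEM the single coding transcript H2-K1-205 (5.65 ± 1.26 TPM) overlapped between libraries with H2-D1-202 (4.83 ± 0.772 TPM). By kallisto H2-K1-205 was lower in each library, with no overlap. It stood at 4.68, 2.28 and 3.53 TPM, against 7.75, 6.48 and 7.39 for H2-D1-202. These values do not compare all coding RNA of the genes, since H2-K1-205 is only a part of coding H2-K1. By RSEM all coding transcripts took 46.0, 45.0 and 53.4% of the 19.6, 18.2 and 16.1 TPM of H2-K1. That part lay above H2-D1 (5.58, 4.13 and 5.66 TPM, all coding) in each library. By kallisto the coding part was 36.9, 38.7 and 35.4% of 15.8, 13.3 and 13.9 TPM. It lay below H2-D1 (8.08, 6.48 and 7.67 TPM) in each library, so the coding order depended on the quantification. By RSEM the coding H2-K1-201 and H2-K1-202 held a further 1.57 ± 0.959 and 1.12 ± 0.393 TPM, and H2-D1-203 held 0.290 ± 0.502.

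Irf3 was divided between the same annotated classes, with the same limit. Retained-intron transcripts took 58.5, 57.4 and 49.0% of Irf3 by RSEM (mean 55.0 ± 5.22%) and 58.8 ± 5.35% by kallisto, or 46.0% of its RSEM-style and 53.4% of its kallisto-style counts. The leading transcript in both was the retained-intron Irf3-207, at 31.7 ± 6.00% and 37.2 ± 3.33%. The retained-intron Irf3-210 held 10.5 ± 1.42% and 9.40 ± 2.15%. The coding part was split differently: Irf3-201 held 20.6 ± 8.84% by RSEM and 7.49 ± 5.69% by kallisto, and Irf3-213 held 13.9 ± 9.78% and 27.5 ± 2.75%. Irf3-201 was the single member transcript called, with a difference of -1.34 ± 0.06 (SE) on the log2(TPM + 1) scale and a limma adjusted p of 0.00119. Over all alternatives run, it stayed called with an adjusted p of 0.00119 to 0.0247. Of 13 member transcripts tested 1 was called, against 19.2% of 28549 transcripts (12.3% higher in the kallisto-style and 6.89% in the RSEM-style tables).

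Tapbp was nearly all coding, with Tapbp-206 at 59.2 ± 6.19% by RSEM and 47.0 ± 2.74% by kallisto and Tapbp-201 at 33.4 ± 8.13% and 39.2 ± 6.33%. Stat2-201 took 85.7 ± 4.75% of Stat2 by RSEM and 68.6 ± 5.29% by kallisto, where the retained-intron Stat2-206 held 15.9 ± 5.61% against 2.48 ± 4.29% by RSEM. Irf9-205 led Irf9 with 54.6 ± 6.68% and 40.8 ± 12.6%, followed by Irf9-202 (16.0 ± 14.6% and 30.2 ± 15.8%) and the retained-intron Irf9-204 (11.6 ± 6.09% and 12.4 ± 3.43%). Shares are not given for Tap1 and Nlrc5, which were too low in at least 1 quantification.

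**Figure D3:**
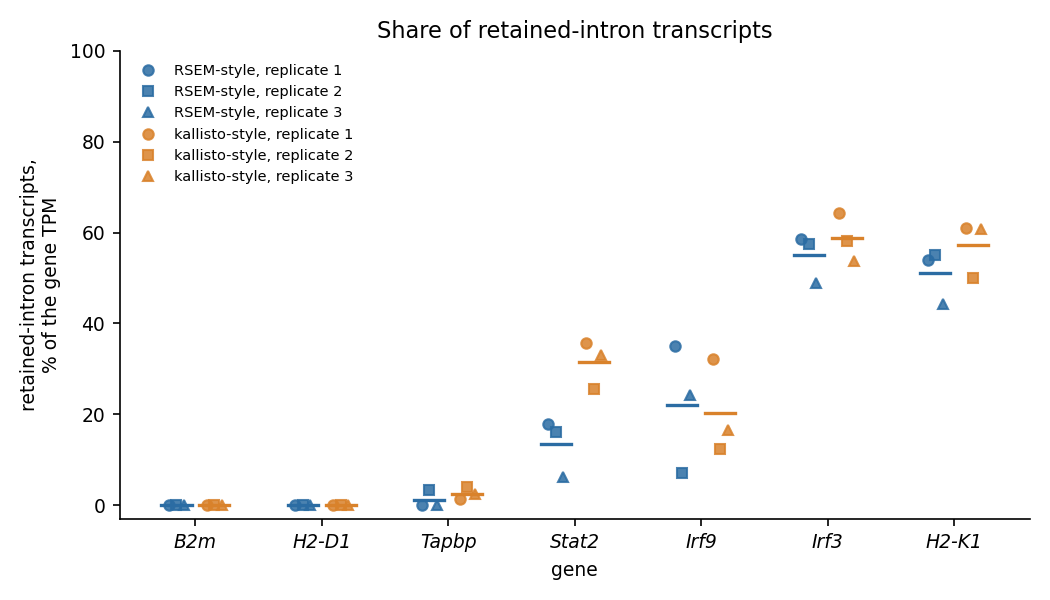
Share of the gene TPM taken by retained-intron transcripts in each library, RSEM-style in blue and kallisto-style in orange, with a bar at each mean, for the 7 members expressed in both quantifications. Irf3 and H2-K1 lie between 44.4 and 64.4%, and B2m (1 annotated transcript) and H2-D1 lie at 0.

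The other class I heavy chain genes were mostly low. Of 14, 3 were expressed, with a median of 0.480 TPM, against 52.1% of protein-coding genes. These were H2-M5, H2-Q2 (2.26 ± 0.249 TPM) and H2-T23 (2.19 ± 0.832 TPM), while H2-T3, H2-T10 and H2-M2 had 0 counts. With 0 counts a gene may still hold up to 3, that is 0.288 to 0.313 CPM (counts scaled to library size), for counting error only. Whether reads from alleles that differ from the reference were missed was not tested for these class I genes either. Without replicate 1, 4 were expressed, the added one being H2-T22, and 5 were expressed by kallisto-style TPM. H2-T23, the gene of the nonclassical molecule Qa-1, is uncertain: the kallisto-style tables gave it 613 TPM on 37555 counts in all, against 62.1 RSEM-style counts, and it was called by limma with a difference of 7.62 ± 0.16 (SE, adjusted p = 1.26e-05). H2-T24 and H2-Q7 were called in the same direction, with differences of 2.32 and 1.01. The differences of H2-K1, H2-D1 and B2m stayed below 1.

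Of the other peptide loading genes, the 3 general chaperones of the endoplasmic reticulum were high. Canx (calnexin) stood at 462 ± 16.0 TPM, Pdia3 at 317 ± 11.3 and Calr (calreticulin) at 132 ± 16.2. The class I specific genes were low, as Tap1 was. Tap2, the partner of Tap1 in the transporter, stood at 0.753 ± 0.201 TPM, Tapbpl at 0.930 ± 0.252 (6.99 TPM in the kallisto-style tables) and Erap1, which trims peptides, at 1.09 ± 0.710. Each of them lay below a TPM of 1 in at least 1 library.

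The proteasome cuts proteins into the peptides that class I molecules carry, and interferon is known to exchange its catalytic subunits for the immunoproteasome set. The subunit gene Psmb8 had 0 RSEM-style counts, while its constitutive counterpart Psmb5 stood at 299.8 ± 7.60 TPM. With kallisto-style TPM, Psmb8 minus Psmb5 was -7.40 in log2(TPM + 1). Psmb9 stood at 1.68 ± 0.546 TPM and its counterpart Psmb6 at 818 ± 49.2, a mean 488 times as high. Psmb10 was the exception at 33.9 ± 2.14 TPM, against 172.8 ± 6.72 for Psmb7, which was 5.09 times as high. On the log2(TPM + 1) scale the difference was -8.27 for Psmb9 minus Psmb6 and -2.32 for Psmb10 minus Psmb7, each negative in 3 of 3 libraries (exact permutation test by sign flips, two-sided, p = 0.25, the smallest that 3 libraries allow). The activator genes Psme1 and Psme2 stood at 30.6 ± 1.88 and 118 ± 8.19 TPM.

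NLRC5 has no DNA-binding domain of its own and is known to act through RFX, NF-Y and CREB or ATF1 proteins at class I promoters. In contrast to Nlrc5, all 8 genes of these partners were expressed, against 52.1% of protein-coding genes, with a median of 22.1 TPM. Nfyb (71.1 ± 2.61 TPM), Nfyc (54.3 ± 2.60) and Rfxap (47.1 ± 6.24) were the highest, and Rfx5 was the lowest at 5.69 ± 1.35 TPM.

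All 11 interferon ligand genes listed, among them Ifnb1, Ifna4, Ifng and Ifnl2, had 0 RSEM-style counts in the 3 libraries, which allows up to 3 counts per library. In the kallisto-style tables Ifna2 had 1 count and the others 0. RNA of the receiving side was present, and whether it signals was not tested. All 9 receptor and JAK kinase genes were expressed, against 52.1% of protein-coding genes. Their median of 3.35 TPM lay below the median of the expressed protein-coding genes. They were led by Jak1 (22.4 ± 0.562 TPM), the type I receptor chain Ifnar1 (21.3 ± 1.73) and Tyk2 (12.7 ± 0.330), with Ifngr2 lowest at 1.96 ± 0.498. The brakes of the pathway were led by Socs3 (138 ± 8.53 TPM) and Ptpn2 (52.5 ± 2.28), and Socs1 was lowest at 1.11 ± 0.0404.

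Among the other STAT and IRF genes 10 of 13 were expressed, against 52.1% of protein-coding genes. Stat3 (65.8 ± 3.44 TPM), which transmits the LIF signal in ES cells, Irf5 (33.4 ± 2.05) and Stat6 (16.7 ± 2.52) were the highest. Irf7, a relative of Irf3 that interferon induces, had 0 counts, and Irf2 and Irf4 were not expressed. Upstream of Irf3, 7 of 12 sensor and adaptor genes were expressed, against 52.1% of protein-coding genes, and 4 of 12 in the kallisto-style tables. Mavs stood at 24.2 ± 0.645 TPM, the IRF3 kinase gene Tbk1 at 18.0 ± 2.02 and the RNA sensor gene Ddx58 (RIG-I) at 7.24 ± 0.685, while Cgas was the lowest expressed at 1.12 ± 0.205. Ifih1 (0.200 ± 0.304 TPM) and Tlr3 (0.137 ± 0.211) were not expressed.

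The interferon-stimulated genes listed fell into low and high ones. Of 30, 12 were expressed, or 40% against 52.1% of protein-coding genes, with a median of 0.575 TPM. Isg15, Ifit1, Ifit3, Usp18, Ifi44, Gbp2, Gbp3 and Iigp1 had 0 counts. At the other end stood the genes of antiviral membrane proteins Ifitm2 (1341 ± 116 TPM), Ifitm3 (239 ± 5.04) and Ifitm1 (149.9 ± 4.00), all above each of the 9 genes. Trim25 (43.2 ± 0.568 TPM), Oas1a (42.8 ± 2.22) and Bst2 (41.9 ± 1.11) followed, and Ifi27 was the lowest expressed at 2.49 ± 0.325. Xaf1 stood at 25.4 ± 0.611 TPM but at 354 in the kallisto-style tables and is uncertain.

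MHC class II genes are best known from professional antigen-presenting cells. Of 8, 6 were expressed, against 52.1% of protein-coding genes. H2-Eb1 stood at 23.6 ± 1.19, H2-DMa at 10.4 ± 1.42 and H2-Ab1 at 6.14 ± 0.842 TPM, and H2-Oa was lowest of the expressed at 1.72 ± 0.193. Their transactivator gene Ciita stood at 0.183 ± 0.0651 TPM, low like Nlrc5. Of the 8 blood and immune markers 2 were expressed, Cd68 and Csf1r, the higher at 17.6 TPM, while Ptprc, Adgre1 and Lyz2 had 0 counts. Which cells the class II RNA came from was not tested.

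**Figure D4:**
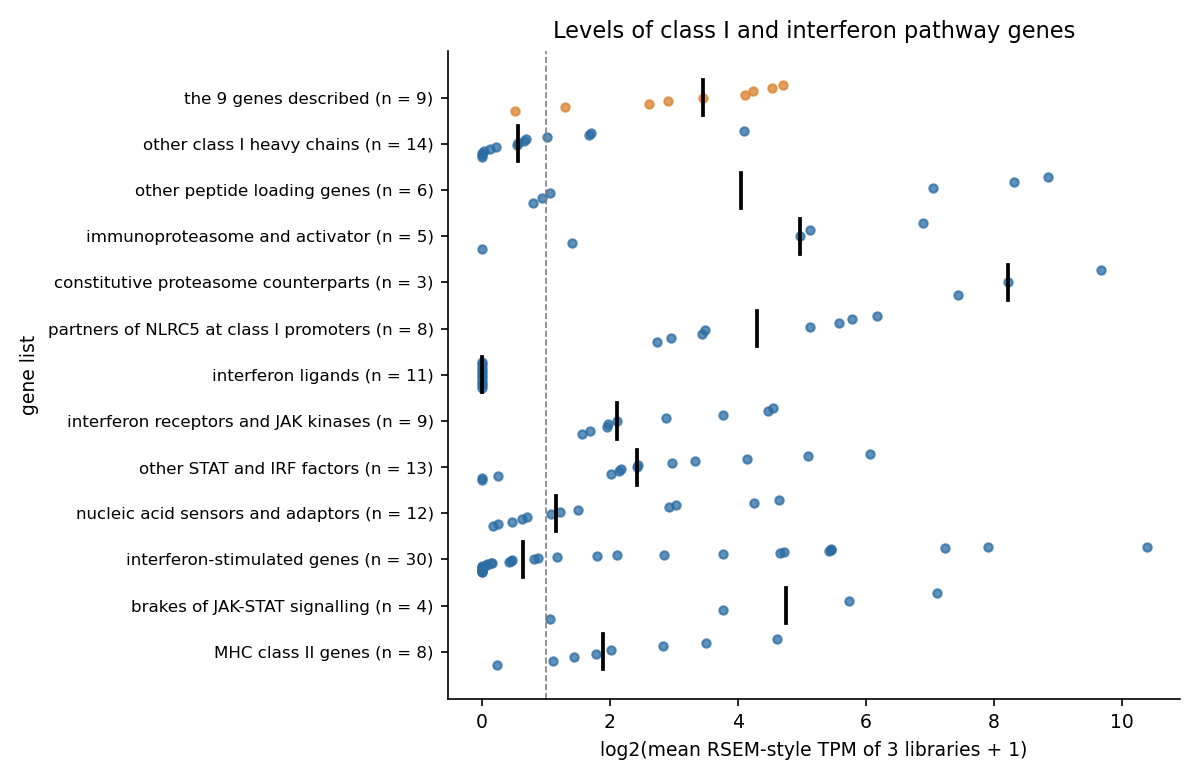
Mean RSEM-style level of each gene as log2(TPM + 1), by gene list, with a black bar at the median of the list and a dashed line at a TPM of 1. The 9 genes described are orange, the 11 interferon ligand genes lie at 0, and the interferon-stimulated genes run from 0 to the 1341 TPM of Ifitm2.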

How the data were processed

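Total RNA-seq of 3 F121-9 libraries was used, on mm10 with GENCODE M21 per the labels and file headers. The deposited gene and transcript tables hold estimated counts (expected counts), which the authors did not normalize, and TPM values, which the authors scaled to the same sum over all features, spike-ins included. The RSEM-style tables were made from transcriptome alignments and the kallisto-style ones from the reads, per the notes deposited with them. The deposited percent values (isoform percentages) were not needed, since shares were computed from TPM. Neither quantifier nor aligner, version or use of strand is given in the sources used here. Symbols and coordinates came from GENCODE M21 for all 55536 genes.

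Gene counts summed to 10425623, 9575747 and 9974983 (RSEM-style) and to 18798954, 17353084 and 18084974 (kallisto-style) in replicates 1, 2 and 3. A count of 0 allows 3 counts, or 0.288, 0.313 and 0.301 CPM, for counting error only. Spike-ins (96 ERCC) and 26248 tRNA entries (0.000133 to 0.00016% of counts) stayed out of library sizes and tests.

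Rounded counts were tested with edgeR 4.0.16 (filterByExpr, TMM, intercept-only quasi-likelihood fit, each dispersion against the trended prior) and a chi-square test against Poisson. The quantifications were compared with limma 3.58.1 on log2(TPM + 1), for genes or transcripts whose TPM was 1 or more throughout the 3 libraries in one of the tables. P-values were adjusted over all features. Fold changes on this scale understate the change of low genes. The fits were tested on simulated data. Alternatives were pseudocounts, thresholds, filters, DESeq2 size factors, ERCC scaling, limma-voom, kallisto-style values and leaving out each library. Coding sequences and promoters were aligned with Biopython 1.88.

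The members and gene lists were chosen with earlier results of these data known. Named are all 9 members, of each list the highest 3, the lowest expressed and genes at 0 counts, member transcripts with at least 10% of their gene, and the 3 genes nearest in level to B2m and H2-K1. Other expressed list genes could also be named. Tap2, Tapbpl, Erap1, Irf2, Irf4, Ifih1, Tlr3, Ciita, H2-T22, H2-T24 and H2-Q7 fall outside the rule and were named after their values were seen. Some items that the rule takes are not reported here.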

Additional observations from a re-analysis of the deposited data

How the results depend on the processing

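No member was called variable or beyond counting noise in any of the alternatives run. The number of expressed members ran from 6 (TPM of at least 5) to 8, and non-overlapping neighbours in the order of levels from 4 (kallisto-style) to 7 (without replicate 1). H2-K1 minus B2m changed sign to -0.14 with kallisto-style TPM and ran from -0.0094 (without replicate 1) to 0.34 with a replicate left out, and Irf9 minus H2-D1 to -0.29 with kallisto-style TPM. The cause was not tested.

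Over all genes, variable genes numbered 5, with 2 under ERCC scaling, 34 with no filter, 8 with limma-voom, 16 with kallisto-style counts and 7 to 14 with a replicate left out. The chi-square test called 2800 genes on kallisto-style counts and 27 to 1471 with a replicate left out. Without the minimum difference limma called 11507 genes (5 members) and 17986 transcripts (7 of members). With a replicate left out 1 to 2 member transcripts were called: Irf3-202 joined Irf3-201 without replicate 2, and Irf3-211 without replicate 3. Psmb9 minus Psmb6 ran from -8.14 to -8.89 and Psmb10 minus Psmb7 from -2.27 to -2.39 over the alternatives. Psmb8 had 0 RSEM-style counts, so its difference from Psmb5 follows the pseudocount.

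No paired analysis was possible because the series has 1 group. Tap1 and Nlrc5 rest on 67 and 24 counts, which limits the precision of their levels. Genes at 0 counts can lie anywhere under the limit of 3 counts per library.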
